A study of Mus musculus with 22 samples.

Results

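The mRNA levels of 41 DNA repair genes were followed in FE1 cells exposed to Mitsui7, which consists of multi-walled carbon nanotubes. The genes were chosen by function, with earlier results of these data known, and a probe was assigned to a gene when its accession mapped to that gene's symbol; the 41 genes stand among 20018 genes that could be named on the array. FE1 is a single line derived from the lung of a transgenic MutaMouse, so every group shares the same genetic background and the arrays describe one line in culture. Cells received Mitsui7 at 0 µg/ml (control, 5 arrays), 12.5 µg/ml (low, 6 arrays), 25 µg/ml (medium, 5 arrays) or 100 µg/ml (high, 6 arrays) and were collected after 24 h. On each of the 22 arrays the sample was labelled with Cy5 and a commercial mouse reference RNA, pooled from cell lines, with Cy3, without dye swap. The value of a gene is therefore its log2 ratio, the log2 of its signal in the cells over its signal in the reference pool, and a change is the difference of that log2 ratio between a dose and the controls after allowing for the slide.

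Cells repair DNA by several routes that differ in the lesion they remove. Homologous recombination mends a double-strand break from the intact sister chromatid, end joining ligates the broken ends directly, base excision removes single oxidised or alkylated bases, nucleotide excision cuts out a stretch of nucleotides around a bulky adduct, and mismatch repair corrects errors of replication. The kinases Atm and Atr sense damaged DNA and pass the signal to the checkpoint kinases Chek1 and Chek2. Several of these genes are transcribed most strongly in dividing cells. Carbon nanotubes have been studied for genotoxicity, and the comparison of each dose with the controls asks whether the transcripts of this machinery differed after exposure.

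The arrays lay on 5 slides. Slide 1 carried 2 arrays of each group, slides 2, 3 and 4 carried 1 array of each group, and slide 5 carried 1 low and 1 high dose array. Between 23688 and 39139 probes per array exceeded the negative controls. By the methods, cells were exposed in 3 separate experiments, fewer than the 5 or 6 arrays of a group, so some arrays of a group share an experiment. The labels do not say which, and p-values taken over arrays, whose spread is then partly technical, may be too small. Arrays are named here by their sample number in the labels. Low array 1 and medium array 2, both on slide 1, stood apart from their labels. After allowing for the slide, the low array correlated at 0.46 with the mean of the medium arrays and at -0.33 with that of the other low arrays, and the medium array at 0.12 with the low arrays and at -0.31 with the other medium arrays. Results at these doses are therefore also given without both arrays, a step not planned beforehand. Only these arrays had a negative correlation with their own group. High array 6 (0.53 with medium, 0.36 with high) and medium array 5 (0.36 with high, 0.23 with medium) also correlated better with another group. So did medium array 1 (0.24 with high, 0.10 with medium) and low array 2 (0.15 with control, 0.02 with low). The study describes FE1 as a lung epithelial line with traits of type I and type II alveolar cells. On every array 3 of 7 epithelial, 2 of 8 alveolar and all 7 mesenchymal markers were detected. Epcam and Cdh1 among the epithelial markers were detected on fewer than 4 of the 5 control arrays. So were the alveolar markers Aqp5, Ager, Sftpa1, Sftpb and Sftpc. Of the mesenchymal markers 5 were lower at the high dose, Col3a1 (-1.70), Col1a2 (-1.52), Col1a1 (-1.34), Pdgfrb (-1.34) and Fn1 (-0.61), and none of the epithelial markers passed; their part in the results below was not tested. In a culture measured in bulk, fewer cells expressing a gene and less RNA per cell cannot be told apart.

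All 41 repair genes passed the detection limit and were tested at each dose. The signal exceeded the negative controls on all 22 arrays for 37 of them, and none was saturated. The exceptions were Brca1 (detected on 15 arrays), Chek1 (18), Neil1 (19) and Wrn (20). In control cells 16 genes had more signal than the reference pool and 25 had less, with a median log2 ratio of -0.16. The ratio ranged from -2.04 ± 0.364 (SD, n = 5) for Mutyh, an adenine glycosylase, to 1.16 ± 0.261 (SD, n = 5) for Lig4, the ligase of end joining. These ratios compare each gene with the pool and give no order of abundance between genes.

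Most repair genes changed little. An adjusted p of at most 0.05 (limma, Benjamini-Hochberg over all probes) was reached at the low dose by 2 of 41 genes (4.88%), against 9.83% of all 13642 named genes tested. The medium dose gave 5 genes (12.2%), against 14.9% of all genes. The high dose gave 6 genes (14.6%), against 20.8% of all genes. Each share of the repair genes was below that of all genes in this fit, and no test was made of this difference. When a change of at least 1.5-fold was also required, the counts were 0, 0 and 3, against 5.28%, 8.97% and 11.9% of all genes. The median log2 change of the repair genes was 0.024, 0.026 and 0.049 at the 3 doses, and that of all genes was 0.001, 0.001 and 0.009.

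The members that passed split in direction. Higher levels were measured for Rad52 at every dose, for Mre11a and Xpc at the medium and high doses and for Polb at the medium dose. Lower levels were measured for Msh3 at the low dose, for Rad54l at the medium and high doses and for Parp1 and Chek2 at the high dose. Higher and lower counts were thus 1 and 1 at the low dose (4.63% and 5.2% of all genes), 4 and 1 at the medium dose (7.28% and 7.63%) and 3 and 3 at the high dose (9.99% and 10.8%). The 3 genes past 1.5-fold at the high dose, Rad52, Mre11a and Xpc, were all higher, where 5.47% of all genes were. The remaining 33 genes did not pass at any dose. The split by direction depended on the scaling. The log ratio of the scanner software gave 1 higher and 1 lower at the low dose, 4 and 0 at the medium dose and 6 and 3 at the high dose, in all 9.53%, 15.0% and 20.9% of all genes, and the 9 repair genes at the high dose were 22.0% of the 41. On the scanner's ratio Blm, Brca1, Pms2 and Xrcc5 joined at the high dose, and Rad54l did not pass. The series matrix gave 1 and 0, 4 and 0, and 4 and 1. With the sample number as a block in place of the slide, 5 genes passed at the low dose (12.2%, against 15.1% of all genes), which were Ercc1, Fanci, Mre11a, Msh3 and Rad52. The block gave 6 at the medium dose (14.6% against 20.0%, with Parp1) and 10 at the high dose (24.4% against 27.1%), where Apex1, Ercc1, Pms2 and Xrcc5 joined the 6 named above. Without low array 1 and medium array 2 the counts were 3 (with Ercc1), 5 (Parp1 in place of Rad54l) and 8 (with Ercc1 and Xrcc5), against 8.17%, 17.0% and 21.8% of all genes. The low dose count was 1 without control array 1, 3 or 4 or low array 2, 4 or 6. The medium dose count was 3 without control array 3 or 5 or medium array 1, 3 or 5. The high dose count was 3 without control array 5 or high array 3. No share of all genes is given for the series matrix or for the fits without a single array.

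**Figure D1:**
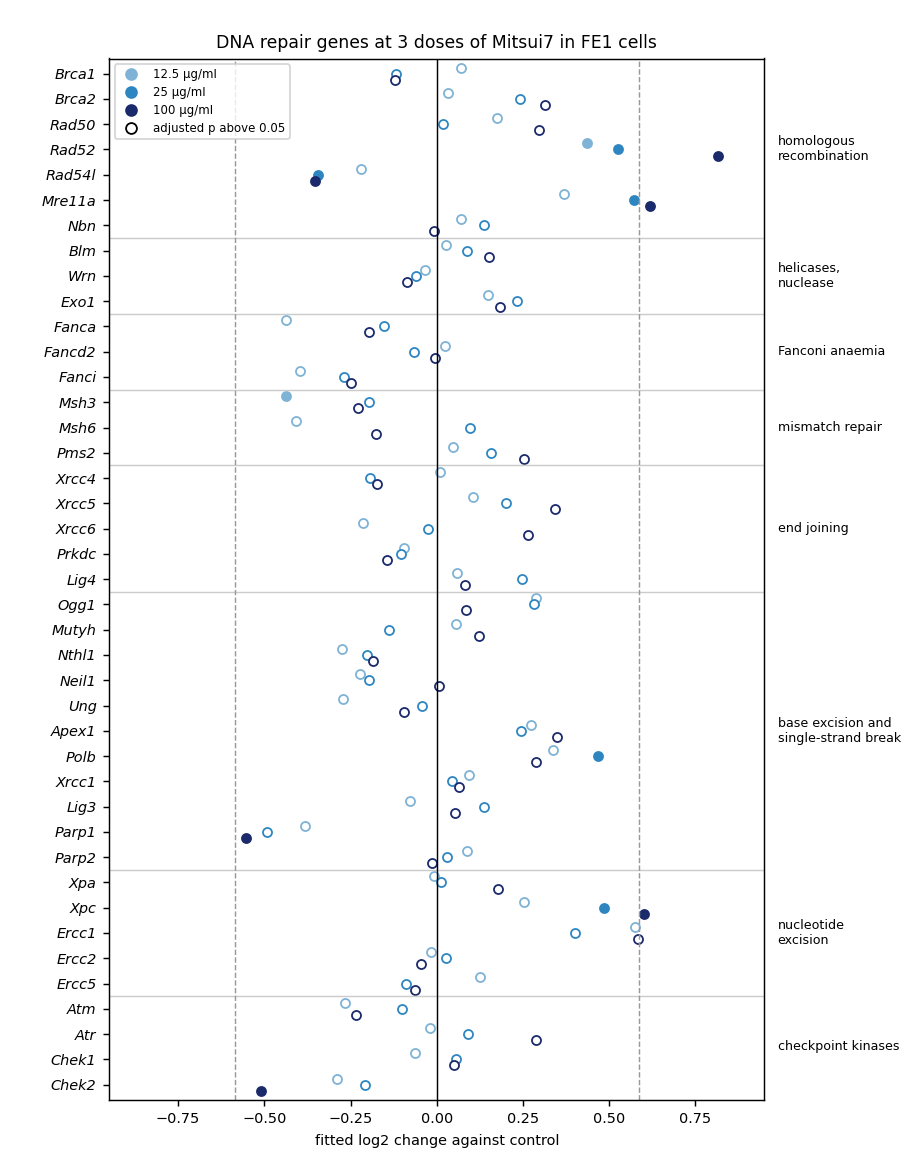
Fitted log2 change against control (horizontal axis) of each of the 41 repair genes, grouped by role, at 12.5, 25 and 100 µg/ml; filled points have an adjusted p of at most 0.05 and dashed lines mark 1.5-fold. Filled points number 2, 5 and 6 in order of rising dose, and the 3 past a dashed line are Rad52, Mre11a and Xpc at the high dose. The high dose point of Brca1 rests on spots that were not well above background.

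The sequences upstream of 5 of the 6 genes that passed at the high dose are shown because these genes moved in opposite directions; that of Xpc is not shown. Each line gives the 150 bases before the RefSeq transcription start, 5′ to 3′ on the strand of the gene, in build GRCm38.p6, with the letters GGGCGG (Sp1-type), CCAAT and TTCCCGC (E2F-type) or their reverse complements in capitals. Rad52 and Mre11a were higher, and Parp1, Chek2 and Rad54l were lower.
Rad52, chr6:119902548-119902697, plus strand: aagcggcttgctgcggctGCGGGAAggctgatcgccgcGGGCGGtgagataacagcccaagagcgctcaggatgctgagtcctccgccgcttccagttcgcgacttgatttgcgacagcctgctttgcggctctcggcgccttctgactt
Mre11a, chr9:14784504-14784653, plus strand: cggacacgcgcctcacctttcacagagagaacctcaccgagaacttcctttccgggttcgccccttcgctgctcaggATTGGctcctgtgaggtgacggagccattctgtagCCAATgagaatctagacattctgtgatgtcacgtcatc
Parp1, chr1:180568741-180568890, plus strand: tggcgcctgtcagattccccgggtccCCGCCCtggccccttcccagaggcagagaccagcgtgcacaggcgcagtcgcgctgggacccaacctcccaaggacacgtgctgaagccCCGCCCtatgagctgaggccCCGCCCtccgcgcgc
Chek2, chr5:110839833-110839982, plus strand: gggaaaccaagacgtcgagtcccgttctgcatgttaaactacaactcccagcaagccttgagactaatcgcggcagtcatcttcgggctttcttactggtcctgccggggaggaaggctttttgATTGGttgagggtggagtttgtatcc
Rad54l, chr4:116123691-116123840, minus strand: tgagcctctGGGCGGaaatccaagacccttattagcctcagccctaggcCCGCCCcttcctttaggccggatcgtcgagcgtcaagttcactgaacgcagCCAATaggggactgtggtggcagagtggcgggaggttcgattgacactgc

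In these 5 windows none of these motifs occurred upstream of both Rad52 and Mre11a, and none upstream of all of Parp1, Chek2 and Rad54l. GGGCGG occurred upstream of Rad52, Parp1 and Rad54l, and CCAAT upstream of Mre11a, Chek2 and Rad54l, so each was found beside a gene that was higher and a gene that was lower. Over windows of 300 bases around the start, 33 of the 41 genes had 36 windows in the RefSeq table, and both strands were searched. At least one E2F-type motif (TTCCCGC or TTGGCGC or TTCGCGC) was found in 50.0% of the repair gene windows and in 8.07% of all 32851 windows. GGGCGG was found in 69.4% and 35.7%, CCAAT in 58.3% and 37.4%, and TTTGAA (the CHR-type motif of cell cycle genes) in 2.78% and 17.9%. TTGGCGC can overlap the reverse of CCAAT. The repair gene windows were also richer in bases G and C (median 59.3% against 52.7%) and in CpG (median 22 against 7), and the part of this composition in the motif shares was not tested.

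Among the genes of homologous recombination, Rad52 had the largest change of all 41 at the high dose. Rad52 promotes annealing of complementary strands during recombination. Its log2 ratio in the 5 controls was -0.45, -0.66, -0.24, -0.27 and -0.21. Low dose values ranged from -0.26 to 0.43 with a median of 0.12. The medium dose arrays read -0.19, 0.08, 0.44, 0.32 and 0.16. The 6 high dose values ran from 0.31 to 0.74, with a median of 0.42, and lay above every control. After allowing for the slide, every exposed array at each dose lay above every control.

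The change of Rad52 was 0.44 at the low dose (SE 0.084, 1.35-fold, adjusted p = 0.004), 0.53 at the medium dose (SE 0.086, 1.44-fold, adjusted p = 0.000561) and 0.82 at the high dose (SE 0.084, 1.76-fold, adjusted p = 1.67e-06), by limma. Within slides 1, 2, 3 and 4 the high dose exceeded the control by 0.90, 0.63, 0.98 and 0.68. The low dose exceeded it by 0.40, 0.46, 0.67 and 0.26, and the medium dose by 0.50, 0.59, 0.68 and 0.36. Without the 2 arrays that stood apart the changes were 0.47, 0.50 and 0.82. The low dose call was lost without slide 1 (0.45, adjusted p = 0.0554) or slide 3 (0.38, adjusted p = 0.0618). It was also lost with median centring (0.27, adjusted p = 0.583), no slide term (0.45, adjusted p = 0.0711) and only the 2 groups compared (0.44, adjusted p = 0.0716). With median centring the medium dose call was lost as well (0.51, adjusted p = 0.224). The high dose was also above the low dose, by 0.38 (SE 0.078, adjusted p = 0.0416, limma), the only repair gene of 41 to pass in that comparison, where 0.828% of all genes passed. That difference lost its call when any 1 of 14 arrays was left out (all 6 low arrays, high arrays 1, 2, 3, 5 and 6, medium arrays 3 and 5 and control array 4), with values between 0.35 and 0.41 and adjusted p between 0.0515 and 0.131. Without low array 1 and medium array 2 together it was 0.35 (adjusted p = 0.0658).

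Mre11a is the nuclease of the complex with Rad50 and Nbn that binds and trims broken ends. Its control values were 0.78, 0.12, 0.17, 0.06 and -0.71, with an SD of 0.529 that fell to 0.308 after allowing for the slide. The low dose arrays ran from -0.08 to 0.91 with a median of 0.40. The medium dose values were 1.07, 0.60, 0.76, 0.38 and 0.47. The high dose arrays ran from 0.30 to 1.24 with a median of 0.59, so the unadjusted values of the groups overlapped, while after allowing for the slide all 6 high dose arrays lay above every control. The change was 0.37 at the low dose (adjusted p = 0.204), 0.57 at the medium dose (SE 0.144, 1.49-fold, adjusted p = 0.0206) and 0.62 at the high dose (SE 0.141, 1.53-fold, adjusted p = 0.00673), by limma. Within slides 1 to 4 the high dose difference was 0.60, 0.29, 0.60 and 1.11. With the sample number as a block the low dose change was 0.39 and passed (adjusted p = 0.0361). The medium dose call was lost without any 1 of control arrays 2, 3 and 5 and medium arrays 1, 3 and 5, with changes of 0.46 to 0.58 and adjusted p of 0.0527 to 0.0893, and without slide 3 or 4 (0.42 to 0.57, adjusted p of 0.114 to 0.16). The high dose call was lost with median centring or no slide term (0.57 to 0.59, adjusted p of 0.178 to 0.534).

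The partners of Mre11a did not pass. The changes of Rad50 were 0.17, 0.02 and 0.30 (adjusted p = 0.376 at the high dose) and those of Nbn were 0.07, 0.14 and -0.01 (adjusted p = 0.988). The 95% interval of Nbn at the high dose ran from -0.27 to 0.25 and that of Rad50 from -0.04 to 0.63.

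Rad54l, a motor protein that remodels chromatin and joint molecules in recombination, was lower. Its control values were -1.45, -1.59, -1.30, -0.83 and -0.63. The medium dose values were -1.91, -1.90, -1.55, -1.04 and -1.13. High dose values ran from -2.11 to -0.92 with a median of -1.38. The ranges overlapped before the slide was allowed for, and after it 5 of 6 low, 5 of 5 medium and 6 of 6 high dose arrays lay below every control. The change was -0.22 at the low dose (adjusted p = 0.263), -0.35 at the medium dose (SE 0.094, 1.27-fold, adjusted p = 0.0343) and -0.35 at the high dose (SE 0.092, 1.28-fold, adjusted p = 0.0176), by limma. Within slides 1 to 4 the high dose difference was -0.34, -0.31, -0.42 and -0.45. The high dose call was lost without control array 5 or without high array 2 or 3 (changes of -0.32 to -0.30, adjusted p of 0.054 to 0.0626) and without any 1 of slides 1 to 4 (adjusted p of 0.0534 to 0.0891). It was also lost with median centring, the scanner's log ratio, the series matrix, no slide term, slide as a random block and only the 2 groups compared (-0.38 to -0.23, adjusted p of 0.0706 to 0.767), and the medium dose call under these same settings (adjusted p up to 0.912). The medium dose call was lost without any 1 of 8 arrays, control arrays 1, 3, 4 and 5 and medium arrays 1, 2, 3 and 5 (-0.36 to -0.31, adjusted p of 0.0591 to 0.1), and without low array 1 and medium array 2 together (-0.34, adjusted p = 0.054).

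Brca1 and Brca2, which promote loading of the recombinase on resected ends, did not pass at any dose in the main fit. Brca2 had control values of -0.20, -0.75, -0.60 and -1.13, with 1 array missing because its spot was marked by the scanner, and high dose values from -0.59 to -0.22. Its changes were 0.03, 0.24 and 0.31 (SE 0.161 and adjusted p = 0.337 at the high dose), fitted without the 4 arrays of slide 2. The signal of Brca1 was well above background on only 2 of the 5 controls and on none of the 6 high dose arrays, so no fold is given for that dose. Its ratio ran from -0.15 to 0.27 in the controls and from -0.21 to 0.04 at the high dose. On the scanner's log ratio Brca1 passed as lower at the high dose (-1.01, adjusted p = 0.0263, limma), a value that rests on the same dim spots.

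**Figure D2:**
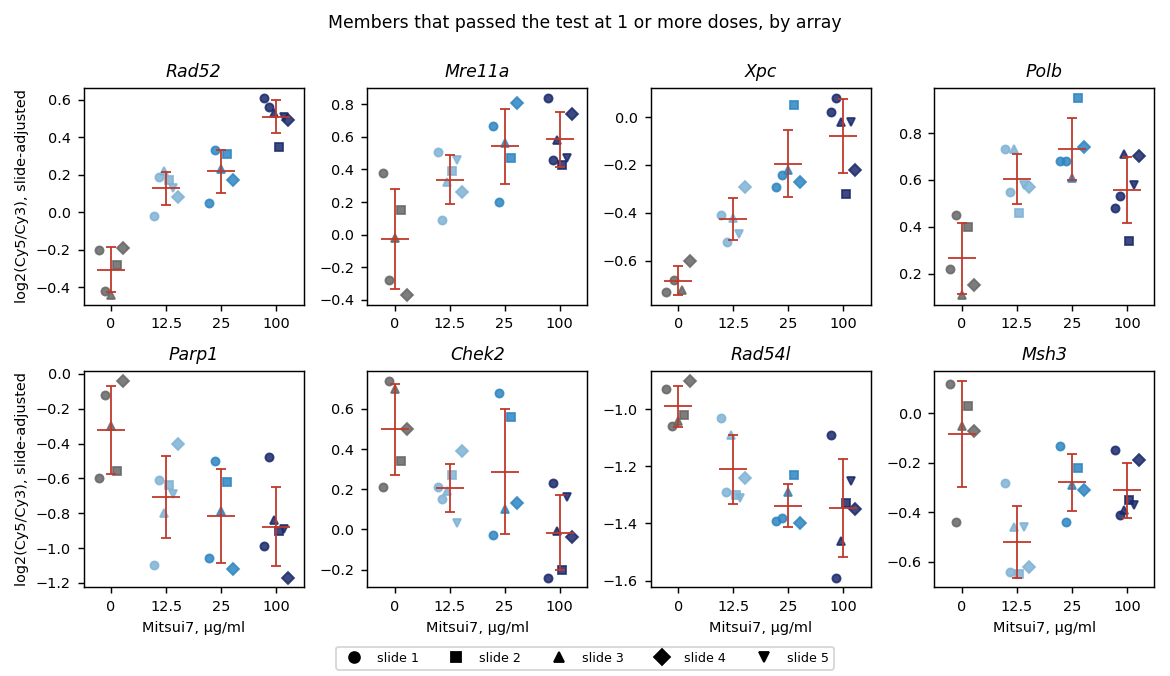
Slide-adjusted log2 ratio (vertical axis) on each array of the 8 repair genes that passed at one dose or more, by concentration of Mitsui7; marker shape gives the slide and red bars the mean ± SD of the group. Rad52 lies above every control at all 3 doses, and Rad54l lies below every control on 6 of 6 high dose arrays.

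In nucleotide excision, Xpc recognises the distorted helix and starts the repair. Its control values were -0.72, -0.67, -0.53 and -0.79, with control array 4 and low array 4 missing because their spots were marked. Low dose values ran from -0.51 to -0.24 with a median of -0.46. At the medium dose it was -0.28, -0.23, -0.04, 0.01 and -0.46. At the high dose it ran from -0.41 to 0.17 with a median of 0.02, and every exposed array that could be read lay above every control, both with and without allowance for the slide. The change was 0.25 at the low dose (adjusted p = 0.241), 0.49 at the medium dose (SE 0.102, 1.40-fold, adjusted p = 0.00654) and 0.60 at the high dose (SE 0.1, 1.52-fold, adjusted p = 0.00053), by limma. Within slides 1, 3 and 4 the high dose difference was 0.75, 0.70 and 0.38. Without slide 1 the medium and high dose changes were both 0.50 and did not pass (adjusted p = 0.289 and 0.234), and without slide 3 the medium dose change was 0.48 (adjusted p = 0.0624).

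Ercc1, a subunit of the endonuclease that cuts 5′ of the lesion, had a change at the high dose close to that of Xpc but did not pass. The controls of Ercc1 read 0.25, 1.20, 0.91, 0.90 and 1.45, and its high dose values ran from 1.38 to 2.11 with a median of 1.54. The change was 0.58 at the low dose (SE 0.211, adjusted p = 0.173), 0.40 at the medium dose and 0.58 at the high dose (SE 0.211, adjusted p = 0.108), by limma. It passed with the sample number as a block at the low dose (0.59, adjusted p = 0.0219) and the high dose (0.60, adjusted p = 0.0104), and without low array 1 and medium array 2 together (0.69 and 0.59, adjusted p = 0.0383 and 0.0292). After allowing for the slide, 4 of 6 high dose arrays lay above every control, and within slides 1 to 4 the high dose difference was 0.75, 0.49, 0.67 and 0.08. The scaffold Xpa, the helicase Ercc2 and the endonuclease Ercc5 had high dose changes of 0.18, -0.05 and -0.06.

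In base excision and single-strand break repair, Polb and Parp1 passed at 1 dose each in the main fit. Polb, the polymerase that fills the gap left by an excised base, had control values of -0.07, 0.15, 0.25, 0.52 and 0.16. At the low dose it ran from 0.26 to 0.87 and at the high dose from 0.18 to 0.85. Medium dose values were 0.39, 0.39, 0.75, 1.07 and 0.75. After allowing for the slide, all 6 low, all 5 medium and 5 of 6 high dose arrays lay above every control. The change was 0.34 at the low dose (SE 0.098, adjusted p = 0.0637), 0.47 at the medium dose (SE 0.1, 1.38-fold, adjusted p = 0.00604) and 0.29 at the high dose (SE 0.098, adjusted p = 0.0823), by limma. Without slide 1 the medium dose change was 0.55 and did not pass (adjusted p = 0.0723), nor did it with median centring or no slide term (adjusted p of 0.118 to 0.388). Without high array 4 the high dose change was 0.35 and passed (adjusted p = 0.035), and the low dose change passed without control array 2, medium array 4 or high array 4 (0.34 to 0.39, adjusted p of 0.0434 to 0.0474). Without slide 2 both the low dose change (0.41, adjusted p = 0.0338) and the high dose change (0.37, adjusted p = 0.0234) passed.

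Parp1 senses single-strand breaks and builds poly(ADP-ribose) chains on proteins at the site. Controls of Parp1 read -0.74, -0.26, -0.29, -0.53 and -0.08. At the low dose it ran from -1.24 to -0.43 with a median of -0.68. At the medium dose it was -1.21, -0.64, -0.77, -0.59 and -1.15. At the high dose it ran from -1.21 to -0.63 with a median of -0.85, overlapping the lowest control, and after allowing for the slide 5 of 6 arrays lay below every control. The change was -0.38 at the low dose (adjusted p = 0.251), -0.49 at the medium dose (adjusted p = 0.0865) and -0.55 at the high dose (SE 0.156, 1.47-fold, adjusted p = 0.0297), by limma. Within slides 1 to 4 the high dose difference was -0.38, -0.34, -0.54 and -1.13, the last on slide 4 being the largest. The call was lost without any 1 of control arrays 2, 3 and 5 and high arrays 1, 3, 4 and 6 (-0.57 to -0.46, adjusted p of 0.0583 to 0.11), without slide 2, 3 or 4 (-0.61 to -0.43, adjusted p of 0.0502 to 0.129), and with the series matrix, no slide term or only the 2 groups compared (-0.55 to -0.47, adjusted p of 0.0502 to 0.106). The medium dose change passed with the sample number as a block (-0.49, adjusted p = 0.0169), without medium array 2 (-0.58, adjusted p = 0.0422) and without low array 1 and medium array 2 together (-0.57, adjusted p = 0.0333). Its relative Parp2 had changes of 0.09, 0.03 and -0.01.

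The glycosylases, which excise damaged bases, did not pass at any dose. Ogg1, which removes 8-oxoguanine, had control values of -0.49, -0.41, -0.60, -0.47 and -0.82. At the low dose its 6 values ran from -1.45 to 0.15 with a median of -0.05. The low value belonged to low array 3, and without that array the low dose change of 0.29 became 0.54 and passed (adjusted p = 0.0416). At the high dose the change of Ogg1 was 0.09, with a 95% interval from -0.33 to 0.50. The high dose changes of Mutyh, Nthl1, Neil1 and Ung were 0.12, -0.19, 0.01 and -0.10. Nthl1, which removes oxidised pyrimidines, had an unadjusted p under 0.05 at all 3 doses, with changes of -0.28, -0.20 and -0.19. None of them passed after adjustment. By limma, 27.7%, 33.1% and 36.2% of all genes had an unadjusted p under 0.05 at the low, medium and high dose. The shares of the repair genes were 29.3%, 19.5% and 29.3%. On the scanner's log ratio the low dose change of Nthl1 passed (-0.42, adjusted p = 0.0196). The endonuclease Apex1, the scaffold Xrcc1 and the ligase Lig3 had high dose changes of 0.35, 0.07 and 0.05, and the second probe of Lig3 one of -0.30. With the block Apex1 passed at the high dose (0.41, adjusted p = 0.0268).

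In mismatch repair, Msh3, which recognises insertion and deletion loops, was lower at the low dose and did not pass at the higher doses. The 5 controls read 0.37, -0.19, -0.01, -0.13 and -0.12. Low dose arrays ran from -0.80 to -0.03 with a median of -0.48. High dose arrays ran from -0.51 to 0.10 with a median of -0.30. After allowing for the slide, 5 of 6 low dose arrays and 0 of 6 high dose arrays lay below every control. The change was -0.44 at the low dose (SE 0.107, 1.35-fold, adjusted p = 0.024), -0.20 at the medium dose (adjusted p = 0.438) and -0.23 at the high dose (adjusted p = 0.265), by limma. High against low dose differed by 0.21 (SE 0.1, adjusted p = 0.602). Both other probes of Msh3 had smaller low dose changes, -0.11 and -0.19, that did not pass. The low dose call was lost without any 1 of control arrays 1, 3 and 4 and low arrays 2, 4 and 6 (-0.43 to -0.38, adjusted p of 0.0574 to 0.0905), without slide 2, 3 or 4 (adjusted p of 0.0985 to 0.171), and with the mean of all probes, median centring, the scanner's log ratio, the series matrix, no slide term or only the 2 groups compared (-0.56 to -0.24, adjusted p of 0.0945 to 0.437). Without control array 2 the high dose change of Msh3 passed (-0.33, adjusted p = 0.0492). Msh6 and Pms2 had high dose changes of -0.18 and 0.25 (adjusted p = 0.0678 for Pms2, and 0.0462 with the block), and the second probe of Pms2 changed by 0.01.

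No gene of end joining passed at any dose in the main fit. Prkdc, the kinase held at broken ends by the Ku pair, had control values of 0.23, 0.34, 0.57, 0.58 and 0.27 and high dose values from 0.11 to 0.53. Its change at the high dose was -0.15 (SE 0.099, adjusted p = 0.531), with a 95% interval from -0.35 to 0.06. The Ku subunits Xrcc5 and Xrcc6 changed by 0.34 (adjusted p = 0.0588) and 0.26 (adjusted p = 0.586) at the high dose, and with the sample number as a block Xrcc5 passed (0.38, adjusted p = 0.0374). Xrcc5 also passed there with normexp, the scanner's log ratio and the series matrix (0.27 to 0.38, adjusted p of 0.0316 to 0.0447). It passed without medium array 2, without high array 4, and without low array 1 and medium array 2 together (0.34 to 0.39, adjusted p of 0.038 to 0.0453). Xrcc4 and Lig4, which form the ligase complex, changed by -0.17 and 0.08. At an unadjusted p under 0.05 stood Xrcc4 at the medium dose and Xrcc5 at the high dose. So did 33.1% and 36.2% of all genes at these doses.

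Of the checkpoint kinases, Chek2 was lower at the high dose. Its control values were 0.34, 0.87, 0.65, 0.43 and 0.23. At the low dose it ran from 0.11 to 0.37 with a median of 0.21. At the medium dose it was 0.11, 0.82, 0.05, 0.66 and -0.14. At the high dose it ran from -0.30 to 0.36 with a median of -0.08, and after allowing for the slide 5 of 6 arrays lay below every control. The change was -0.29 at the low dose (adjusted p = 0.373), -0.21 at the medium dose (adjusted p = 0.588) and -0.51 at the high dose (SE 0.142, 1.43-fold, adjusted p = 0.0267), by limma. Within slides 1 to 4 the high dose difference was -0.48, -0.53, -0.71 and -0.54. The call was lost without any 1 of control arrays 2, 3 and 5 and high arrays 1, 3, 4 and 6 (-0.51 to -0.44, adjusted p of 0.0549 to 0.108), without any 1 of slides 1 to 4 (-0.53 to -0.46, adjusted p of 0.061 to 0.152), and with median centring or no slide term (adjusted p of 0.0514 to 0.0774).

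The other 3 kinases did not pass. Atm had control values of 0.26, 0.06, 0.51, 0.35 and 0.26, and its changes were -0.27, -0.10 and -0.23 (SE 0.123 and adjusted p = 0.352 at the high dose). Its second probe changed by 0.01 at the high dose. Atr had control values of 0.08, -0.58, -0.32, -0.41 and -0.49, and its changes were -0.02, 0.09 and 0.29 (SE 0.147, adjusted p = 0.33 at the high dose). Within slides 1 to 4 the high dose exceeded the control for Atr by 0.34, 0.29, 0.26 and 0.33. Chek1 was dim, being well above background on 9 of 22 arrays, and its changes were -0.06, 0.06 and 0.05.

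**Figure D3:**
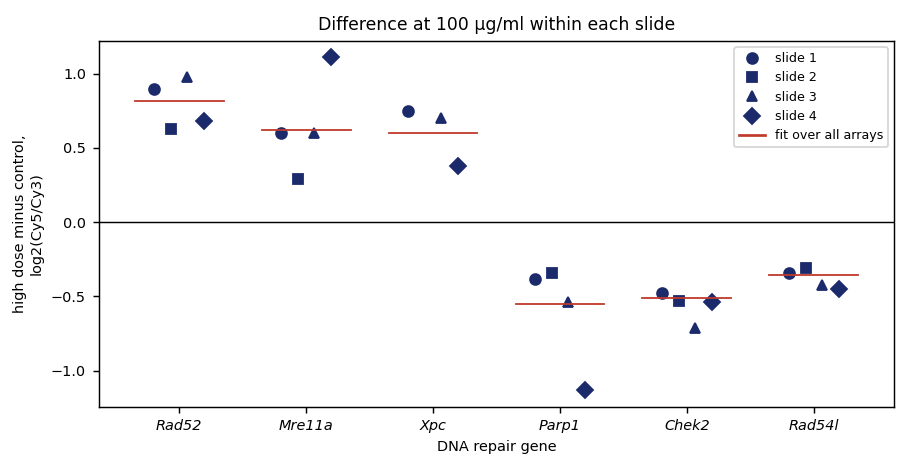
High dose minus control log2 ratio (vertical axis) within each of slides 1 to 4 for the 6 repair genes that passed at 100 µg/ml; red lines give the change fitted over all arrays. Xpc could not be read on the control of slide 2. Every difference shown has the sign of its fit, and the smallest within a gene are 0.63 for Rad52 and 0.29 for Mre11a.

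The Fanconi anaemia genes, which act on crosslinks between strands, did not pass. The high dose changes were -0.20 for Fanca, 0.00 for Fancd2 and -0.25 for Fanci. At the low dose Fanca (-0.44) and Fanci (-0.40) had an unadjusted p under 0.05, as did 27.7% of all genes. Their adjusted p was 0.274 and 0.314, and with the block Fanci passed (-0.39, adjusted p = 0.0349). Without control array 5 Fanca passed (-0.65, adjusted p = 0.0293). The helicases Blm and Wrn and the exonuclease Exo1 did not pass either, with high dose changes of 0.15, -0.09 and 0.18. On the scanner's log ratio Blm passed at the high dose (0.23, adjusted p = 0.0258, limma).

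The precision of these comparisons can be read from the intervals. Of the 35 repair genes that did not pass at the high dose, 26 had a 95% interval that lay within 1.5-fold in both directions. The median interval extended 0.28 on the log2 scale to each side of the estimate. The intervals of the other 9 genes reached past 1.5-fold, so a change of that size is not excluded for them. Nor is it excluded for Brca1 and Chek1, whose intervals lay within 1.5-fold. Their signal was well above background on only 4 and 9 of the 22 arrays. All intervals may also be too narrow, since some arrays of a group share an experiment. Across the 3 doses 15 genes had a positive change and 11 a negative change each time, but the doses share the same controls. The share of all genes that kept a sign was not counted. These counts are therefore no result about the repair genes.

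**Figure D4:**
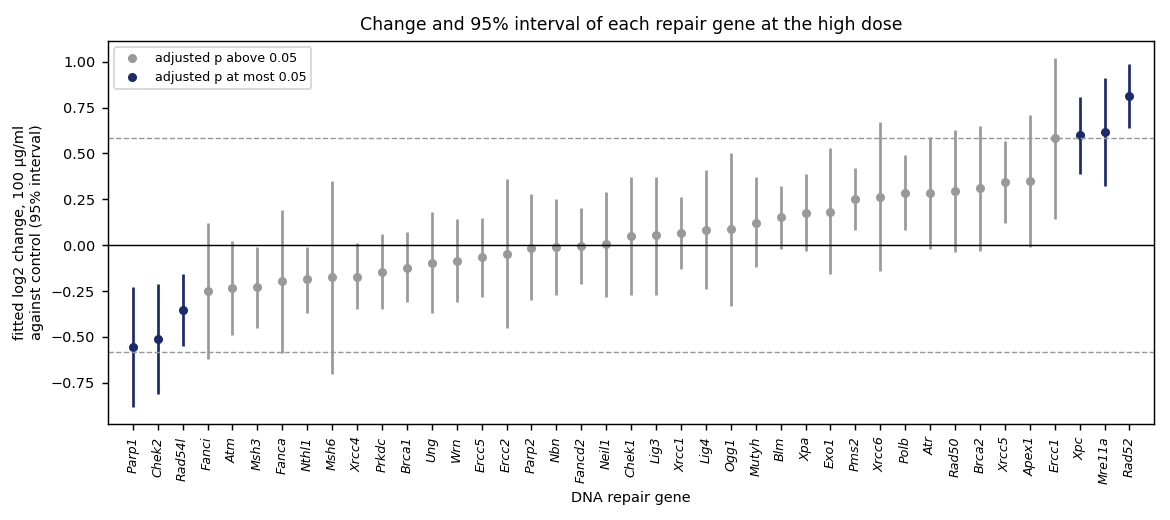
Fitted log2 change at the high dose with its 95% interval (vertical axis) for each of the 41 repair genes in order of change; dark points have an adjusted p of at most 0.05 and dashed lines mark 1.5-fold. The 3 dark genes on the left are Parp1, Chek2 and Rad54l and the 3 on the right Xpc, Mre11a and Rad52. The value of Brca1 rests on spots that were not well above background at this dose.

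The doses were also compared with each other. No repair gene passed between medium and low dose or between high and medium dose by limma, where 0.0% of all genes passed. At an unadjusted p under 0.05, 3 repair genes (7.32%) stood in each comparison, against 8.71% of all genes between medium and low dose and 5.47% between high and medium dose. They were Msh3, Xpc and Xrcc4 between medium and low dose, and Chek2, Mutyh and Rad52 between high and medium dose.

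Other genes of repair, replication and division give the setting. Counts in this paragraph are of genes with an adjusted p of at most 0.05 at the high dose (limma). Of all genes 9.99% were higher and 10.8% lower by that rule. Of 69 further repair genes tested at the high dose, 10 were higher and 7 lower, with a median change of -0.01. The 6 largest log2 changes among those that also exceeded 1.5-fold were those of Rad9a (1.29), Gtf2h1 (1.06), Recql4 (0.99), Cetn2 (-0.92), Rad1 (0.90) and Parp3 (-0.72). Rad9a and Rad1 are subunits of the clamp that activates Atr signalling. Its remaining subunit Hus1 changed by 0.17 (adjusted p = 0.533, limma) and its loader Rad17 by 0.16 (adjusted p = 0.498), and neither passed. Of 30 replication genes 4 were higher and 3 lower (median -0.04), and of 19 mitotic genes 0 were higher and 3 lower (median -0.22). Of 23 targets of p53, a transcription factor activated by damage and other stress, 11 were higher and 2 lower, with a median change of 0.51. Xpc belongs to that list as well as to the repair genes.

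**Figure D5:**
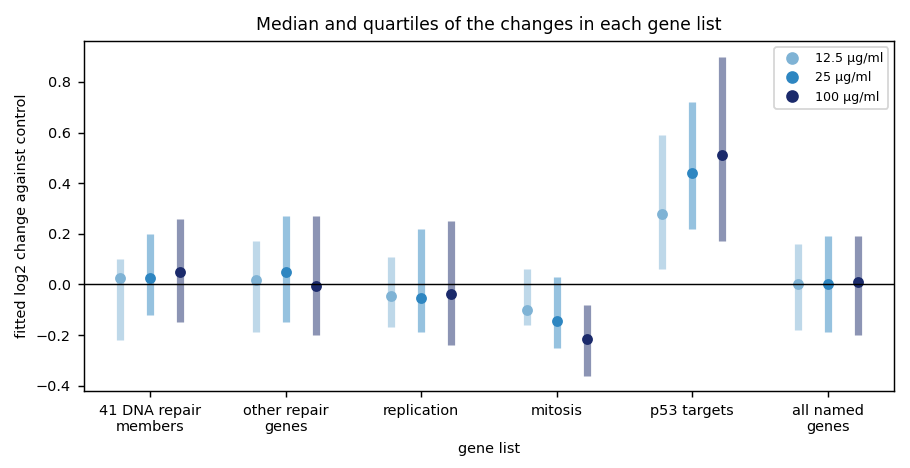
Median (point) and quartiles (bar) of the fitted log2 changes against control in each gene list at 12.5, 25 and 100 µg/ml. The median of the 41 repair genes stays between 0.02 and 0.05, close to that of all named genes, while that of the p53 targets is 0.51 at the high dose.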

How the data were processed

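RNA from FE1 cells was hybridised to 22 Agilent 2-colour arrays. The deposited scanner files hold the median signal intensity of each spot in both channels, which the authors extracted with Feature Extraction 10.7.3.1 per the file headers; the methods of the study name another version. The same files hold a log10 ratio made by the scanner software with background and dye correction, and the deposited series matrix holds log2 ratios by a normalization not given in the sources used here; both were used as alternatives only. The deposited scanner marks for outlier, saturated and well above background spots (other values of 0 or 1) were used as given.

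No background was subtracted; the log2 ratio of the 2 channels' median signals was put through a loess normalization array by array, and marked spots were set to missing. Detection required a Cy5 signal over a limit taken from the 308 negative control spots (their mean after 5% trimming, plus 3 SDs of the trimmed values). Of 55681 probes, 26413 matched a symbol through their accession. A gene was read from its brightest probe and tested when 4 or more arrays of one of the groups compared detected it. limma 3.58.1 in R 4.3.3 fitted group and slide over all 22 arrays, with Benjamini-Hochberg adjustment over all probes; it took the place of the shrinkage test of the study, which was not installed. A slide-adjusted value is the log2 ratio less the fitted slide effect. Signal is not a count, and the number of arrays limits the precision. On simulated data with the same design the model was checked and recovered the changes put in. The noise of the simulated arrays was independent, so the check does not cover arrays that share an experiment.

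Deviations from the group means were compared between arrays of different groups. Arrays with the same sample number correlated at 0.178 or more in all 27 pairs on a shared slide (median 0.545). Arrays with different numbers on a shared slide correlated at 0.0438 to 0.55 in 16 pairs (median 0.328). The 4 pairs with the same number on different slides correlated at 0.272 or more, but all were among arrays numbered 5. A fit with the number as a block was therefore run beside the main one. No arrays were duplicates (highest correlation 0.961). Alternatives were median centring, normexp with offset 50, the scanner's log ratio, the series matrix, no slide term, slide as a random block, the block, detection limits, marked spots kept, other probe rules, and leaving out each array or slide. The normexp alternative used the median in place of the mean signal. The members and gene lists were chosen with earlier results of these data known. Genes given in full were those past an adjusted p of 0.05 at any dose and a set chosen by role. Since the array grid is on mm9, the only coordinates given are those of RefSeq promoters in GRCm38.p6.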

Additional observations from a re-analysis of the deposited data

Results flagged for a closer look

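Ogg1 had 1 array far from the others of its group. Among the 6 low dose arrays, low array 3 had a log2 ratio of -1.45, while the other 5 lay between -0.29 and 0.15. Of 60 groups of arrays examined over the genes given in full, this was the only 1 flagged, and chance flags about 1 in 20 such groups.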

How the results depend on the processing

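The number of arrays limits these results. Every call of the main fit other than that of Rad52 at the high dose was lost under some alternative. The high dose change of Rad52 passed in all 40 alternatives. The other detection limits could not alter it, and most of the rest left out a single array. Median centring moved the median of all genes at the low dose to -0.11, and that of the repair genes to -0.086, and left 0, 0 and 2 genes past the test at the low, medium and high dose; the high dose changes of Mre11a and Xpc were then 0.59 and 0.56 and did not pass. Dropping the slide term gave 0, 2 and 2, with Mre11a at 0.57 at the high dose, and with the sample number as a block (pairing the arrays) 5, 6 and 10. With slide as a random block the medium dose count was 3. With only the compared groups the low and medium counts were 0 and 3. The series matrix and the mean of all probes each gave 1 at the low dose. Without slide 1 the counts were 1, 2 and 3, without slide 3 they were 0, 2 and 3, and without slide 4 they were 1, 3 and 3. With 1.5-fold required they were 0, 0 and 3. Leaving out single arrays gave 1 to 3, 3 to 5 and 3 to 8 genes and medians of -0.014 to 0.045, -0.005 to 0.064 and -0.016 to 0.085. Between high and low dose the count was 0 with median centring, the series matrix, no slide term, a random block, marked spots kept, only the 2 groups, without any 1 slide and without low array 1 and medium array 2 together, and 0 to 2 without single arrays, with Xpc as the second gene without medium array 4. The block changed no other call than those given with the results. The cause of these differences was not tested. Shares of all genes are given for the main fit, the sample number block, the scanner's log ratio and the fit without low array 1 and medium array 2. For the other settings no share is given, so whether all genes lost calls alike cannot be read here.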
